A study of Mus musculus with 4 samples.

Results

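The primary granule genes are 10 genes of the neutrophil lineage, taken by symbol from a deposited table of 55339 rows, and all 10 were present: Elane, Prtn3, Ctsg, Prss57, Mpo, Ctsc, Cst7, Serpinb1a, Ms4a3 and Nkg7. Polyadenylated RNA of leukemia cells was sequenced. The cells came from bone marrow of mice of strain C57BL/6, with 2 libraries of genotype YBX1-/- (knockout, KO, replicates 1 and 3, titled cKO) and 2 of genotype WT (replicates 4 and 5). YBX1 is an mRNA-binding protein, whose role in the survival of myeloid leukemia cells and in mRNA stability the study set out to examine. The labels give neither the leukemia driver, nor what deletes Ybx1 and in which cells, nor the age of the mice, nor whether replicates come from separate animals, so the spread behind each p-value may be no more than technical. KO replicate 3 carries RNA-seq2 in its title and the other 3 libraries RNA-seq1.

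Primary, or azurophil, granules are the first granules that a developing neutrophil makes, at the promyelocyte stage. They are filled with serine proteases, with myeloperoxidase and with lysosomal enzymes, and the transcription of their genes is switched off as secondary granules begin to form. Leukemic blasts of the granulocytic lineage often carry these genes, and myeloperoxidase is a classical marker of myeloid leukemia. In bulk RNA, fewer cells of a type and less RNA per cell cannot be told apart.

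Elane (neutrophil elastase), Prtn3 (proteinase 3) and Prss57 (neutrophil serine protease 4) lie on chromosome 10 (GRCm38), Elane at 79886247 to 79888215 on the plus strand, Prtn3 at 79874476 to 79883174 on the plus strand and Prss57 at 79781474 to 79790961 on the minus strand. Prtn3 ends 3.07 kb before Elane starts, and Prss57 is 83.5 kb away from Prtn3. Ctsg (cathepsin G) lies on chromosome 14, 56099881 to 56102574, minus strand. Mpo (myeloperoxidase) lies on chromosome 11, 87793581 to 87804413, plus strand. All 10 are annotated as protein-coding genes in GENCODE M21.

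RefSeq promoter windows of 300 bases (GRCm38.p6), with 250 bases before the transcript start and 50 after it, matched 8 of the 10 genes, all but Prss57 and Serpinb1a. The windows of 3 serine protease genes and of Mpo are shown because the library values of Elane and Prtn3 ran closely together while those of Ctsg and Mpo were more spread. They are Elane at chr10:79886062-79886361 (plus strand), Prtn3 at chr10:79879417-79879716 (plus strand), Ctsg at chr14:56102525-56102824 (minus strand) and Mpo at chr11:87793534-87793833 (plus strand). Capitals mark matches on either strand to AGGAAGT (the core of a PU.1 site), CAACNG (a MYB site) and TATAAN, the motif of the TATA box.
Elane: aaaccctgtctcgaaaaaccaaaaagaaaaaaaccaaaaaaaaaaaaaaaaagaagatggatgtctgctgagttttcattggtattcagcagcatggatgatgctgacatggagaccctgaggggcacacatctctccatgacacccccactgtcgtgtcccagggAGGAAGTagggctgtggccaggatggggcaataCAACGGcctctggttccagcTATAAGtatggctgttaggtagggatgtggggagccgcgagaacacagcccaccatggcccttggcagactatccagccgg
Prtn3: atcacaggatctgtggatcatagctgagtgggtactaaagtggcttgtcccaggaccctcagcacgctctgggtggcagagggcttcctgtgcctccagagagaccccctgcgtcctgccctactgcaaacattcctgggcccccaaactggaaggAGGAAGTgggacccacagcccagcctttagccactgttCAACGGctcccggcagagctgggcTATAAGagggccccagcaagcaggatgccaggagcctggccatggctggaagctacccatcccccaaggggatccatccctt
Ctsg: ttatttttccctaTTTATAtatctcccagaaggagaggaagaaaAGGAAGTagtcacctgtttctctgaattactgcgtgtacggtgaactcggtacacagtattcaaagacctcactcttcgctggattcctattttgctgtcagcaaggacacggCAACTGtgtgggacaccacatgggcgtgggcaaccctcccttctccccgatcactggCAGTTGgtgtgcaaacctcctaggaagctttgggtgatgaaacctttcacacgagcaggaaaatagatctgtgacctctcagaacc
Mpo: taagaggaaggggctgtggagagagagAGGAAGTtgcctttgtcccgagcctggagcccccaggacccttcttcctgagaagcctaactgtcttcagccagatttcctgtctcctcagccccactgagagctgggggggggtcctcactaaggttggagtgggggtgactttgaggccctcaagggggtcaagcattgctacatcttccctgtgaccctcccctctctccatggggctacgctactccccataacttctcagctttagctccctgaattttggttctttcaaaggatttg

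The windows of Elane and Prtn3 held the same 3 matches in the same order and on the same strand. AGGAAGT began at -84 in Elane and -94 in Prtn3, CAACGG at -51 and -56, and TATAAG at -31 and -32, counted from the RefSeq transcript start. AGGAAGT was present in 6 of the 8 windows (Cst7, Ctsc, Ctsg, Elane, Mpo and Prtn3) and in 9.27% of all 32544 RefSeq promoter windows. CAACNG was present in 4 of 8 and in 34.9% of all windows, and TATAAN in 3 of 8 and in 24.8%. TTGCNNAA, a C/EBP motif, was found in Cst7 and Ms4a3 and in 10.8% of all windows. TGTGGT, a RUNX motif, was found in Cst7, Ctsg and Nkg7 and in 16.7%. ATTGG, the core of the Y-box after which YBX1 is named, was found in Elane, Ms4a3 and Nkg7 and in 37.4%. No searched pair of motifs shares letters at these positions in Elane or Prtn3. The motifs were searched on both strands and chosen after the sequences had been read, and a match is a description, not a binding site. Genes outside the primary granule genes, such as Gsr, ran closer to Elane in library values than Prtn3 did. Any tie between the matches and the library values was not tested.

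The deposited values are log2 expression per gene, on a normalization by the authors that the sources used here do not describe, and without counts the depth is unknown. Ybx1 was at 7.29 and 8.33 in KO cells, against 19.70 and 10.002 in WT cells (replicates 4 and 5). The first of these 2 WT libraries was unlike the rest. Turned back to the linear scale, its values over the 17303 genes tested summed to 155 times those of WT replicate 5, while the KO libraries summed to 0.928 and 0.955 times. Across genes, which are not independent replicates, Pearson's r was 0.958 between the KO libraries, 0.933 and 0.937 between each of them and WT replicate 5, and from 0.692 to 0.708 for the pairs with WT replicate 4.

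In WT replicate 4 the values of moderately expressed genes lay in separate bands, a pattern the other libraries did not show. Of 3612 genes with a median of log2 7 to 9 in the other libraries, 2124 (58.8%) had a value below 6.1 in WT replicate 4, 0 lay between 6.1 and 6.9, and the rest lay higher. In the KO libraries and WT replicate 5, taken the same way, 1.33% to 2.42% of genes lay below 6.1 and 4.65% to 9.20% between 6.1 and 6.9. Within the lowest band the SD over genes was 0.17, and a gene's value in WT replicate 4 followed its mean in the other libraries, with Pearson's r = 0.823 across 2124 genes. Prss57, at 5.35, and Cst7, at 5.30, lay in this band, so their values in WT replicate 4 cannot be read as a second, separate WT level. The band edges were set after the values had been seen.

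**Figure D1:**
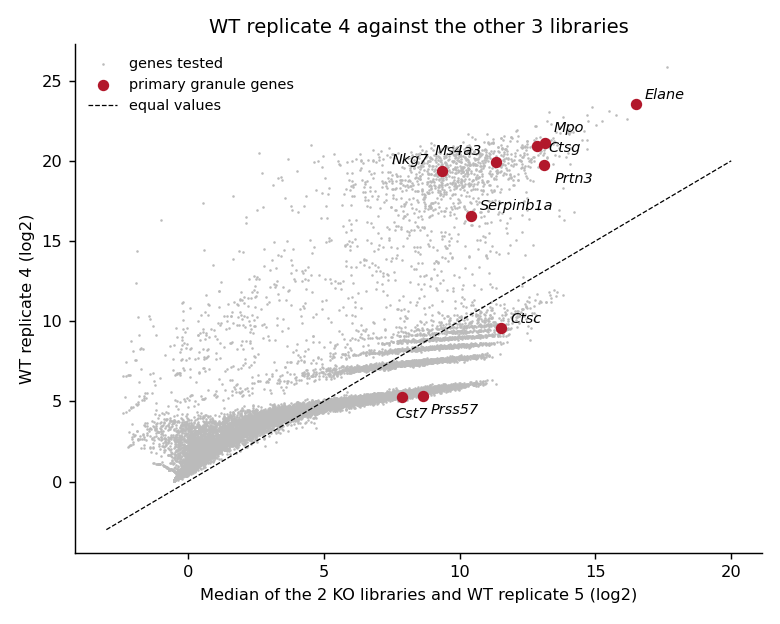
Value of each of the 17303 tested genes in WT replicate 4 (vertical axis, log2) against its median in the 2 KO libraries and WT replicate 5 (horizontal axis, log2), with the 10 primary granule genes in red and equal values on the dashed line. Elane, Mpo, Ctsg, Prtn3, Ms4a3, Nkg7 and Serpinb1a lie far above the line, while Ctsc, Cst7 and Prss57 lie below it, the last 2 in the lowest of several bands.

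No primary granule gene was called between KO and WT. In the deposited values the 4 serine protease genes lay above WT replicate 5 in both KO libraries, against 41.8% of all tested genes. These 4 were not a list set in advance, so that count is not read as a result. Elane was level in KO replicate 3 and WT replicate 5, at 16.09, after quantile normalization without WT replicate 4. In the fit of all libraries, WT replicate 4 included, none of the 17303 genes (0%) passed limma's adjusted threshold of 0.05. In that fit 651 genes (3.76%) had an unadjusted limma p under 0.05, of which 1 was a primary granule gene, Prss57. Both KO values lay above both WT values in 1 of the 10 genes, Prss57, against 17.3% of all tested genes, and below both WT values in 0 of 10, against 18.8%. Against WT replicate 5 alone both KO values were above in 6 of 10, against 41.8% of all tested genes, and below in 2 of 10, against 33.4%. Counts this near to the shares over all genes are not read as a result about the 10 genes. The median KO minus WT difference of the 10 genes was -3.06 on the log2 scale over all libraries, against -0.093 over all tested genes. Without WT replicate 4 it was 0.70, against 0.074.

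Elane, whose product cleaves elastin and bacterial proteins, was at 16.48 and 16.55 in KO cells, against 23.52 and 15.84 in WT cells. The KO pair lay close together and between the 2 WT libraries. The KO mean of 16.52 ± 0.047 (SD, n = 2) was 0.67 above WT replicate 5, a 1.60-fold higher linear level, and differed from WT replicate 4 by -7.007. The limma difference of -3.17 (SE 39.2) had an adjusted p of 0.985. The trend of variance with level, extended to this very abundant gene, set that SE, which was 2.79 without the trend (adjusted p = 0.797). Without WT replicate 4 the difference of 0.67 (SE 0.32) had a limma adjusted p of 0.571.

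Prtn3, the neighbour of Elane and the gene of the autoantigen proteinase 3, was at 13.10 and 13.13 in KO cells, against 19.74 and 12.39 in WT cells. As with Elane, the KO libraries differed from each other by much less than either differed from WT replicate 5. The KO mean was 0.73 above WT replicate 5 (SE 0.19 without WT replicate 4, limma adjusted p = 0.477). Over all libraries the difference was -2.95 (SE 6.13, limma adjusted p = 0.896). Ctsg was at 12.87 and 13.69 in KO cells, against 20.92 and 12.15 in WT cells, with a wider spread between the KO libraries than in Elane or Prtn3. Its KO mean was 1.13 above WT replicate 5 (SE 0.50, limma adjusted p = 0.551 without WT replicate 4).

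Prss57, a protease of the same granules that cuts after arginine, was the gene with the widest gap above WT replicate 5. It was at 8.66 and 8.96 in KO cells (8.81 ± 0.21, SD, n = 2), against 5.35 and 7.14 in WT cells. The groups did not overlap, but the value of WT replicate 4 lies in its lowest band and is no separate WT level. The limma difference of 2.57 (SE 0.87) had an unadjusted p of 0.0346 and an adjusted p of 0.826. Its size was widened by that value. Against WT replicate 5 alone the difference was 1.67, a 3.18-fold higher linear level (SE 0.27, limma adjusted p = 0.466).

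**Figure D2:**
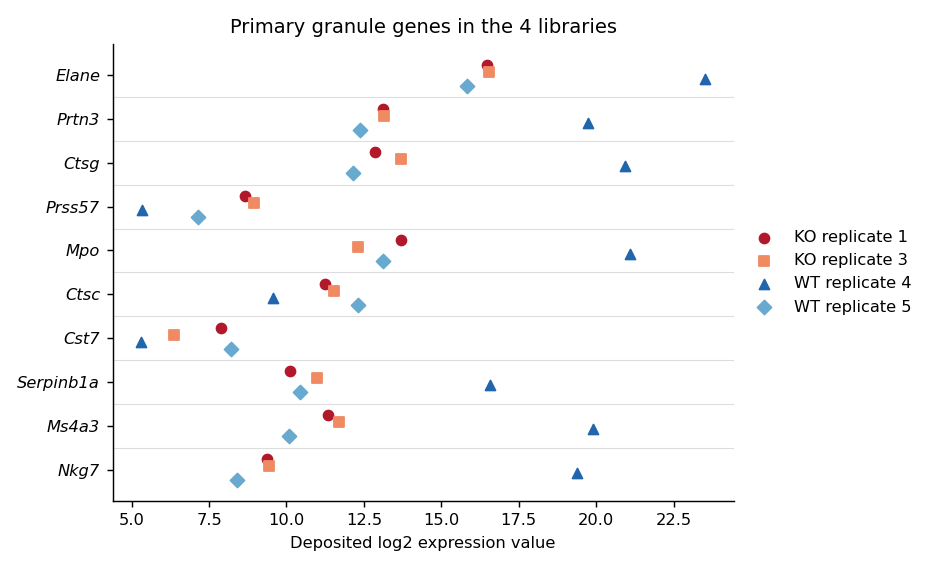
Deposited log2 value (horizontal axis) of each primary granule gene in the 2 KO libraries (red and orange) and the 2 WT libraries (dark and light blue). The KO values lie between the WT values in genes such as Elane and Prtn3, and above both in Prss57.

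Mpo, whose enzyme makes hypochlorous acid from hydrogen peroxide and chloride, was at 13.71 and 12.30 in KO cells, against 21.09 and 13.13 in WT cells. The KO libraries lay on opposite sides of WT replicate 5 and 1.41 apart, more than the distance of their mean from that library, which was -0.13. The limma difference was -4.11 (SE 7.63, adjusted p = 0.885). Leaving out WT replicate 4 gave -0.13 (SE 0.80, limma adjusted p = 0.955). Its paralogs Epx, the eosinophil peroxidase gene, and Lpo were listed at 0 in all 4 libraries.

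Ctsc and Cst7 were the 2 genes below WT replicate 5 in both KO libraries. Ctsc (chromosome 7, 88278085 to 88310888, plus strand) encodes cathepsin C, the cysteine protease that trims and thereby activates the granule serine proteases. It was at 11.24 and 11.53 in KO cells, against 9.56 and 12.32 in WT cells. The KO mean was 0.93 below WT replicate 5 (a difference of -0.93, SE 0.24, limma adjusted p = 0.477 without WT replicate 4) and 1.83 above WT replicate 4. Cst7 (chromosome 2, 150570415 to 150578944, plus strand) encodes cystatin F, an inhibitor of cathepsin C. It was at 7.89 and 6.37 in KO cells, against 5.30 and 8.22 in WT cells. The difference of -1.09 from WT replicate 5 (SE 0.88, limma adjusted p = 0.709) was smaller than the 1.53 between the KO libraries.

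Serpinb1a (chromosome 13, 32842092 to 32851185, minus strand) encodes a serpin that inhibits elastase, proteinase 3 and cathepsin G in the cytosol. It was at 10.12 and 10.97 in KO cells, against 16.57 and 10.43 in WT cells, with WT replicate 5 between the KO libraries. Its near copies contributed little to the table, with Serpinb1c listed at 0 in every library and Serpinb1b at -1.52 in both KO libraries and at -1.37 and -1.52 in WT libraries.

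Ms4a3 and Nkg7 encode membrane proteins with several membrane-spanning segments. Ms4a3 (chromosome 19, 11629496 to 11640851, minus strand), a marker of granulocyte and monocyte progenitors, was at 11.33 and 11.68 in KO cells, against 19.91 and 10.09 in WT cells. Its KO mean was 1.42 above WT replicate 5, a 2.67-fold higher linear level (SE 0.26, limma adjusted p = 0.474 without WT replicate 4). Nkg7 (chromosome 7, 43437073 to 43438249, plus strand), better known from the granules of cytotoxic lymphocytes, was at 9.37 and 9.45 in KO cells, against 19.38 and 8.41 in WT cells. The KO mean was 0.9998 above WT replicate 5 (SE 0.20, limma adjusted p = 0.474 without WT replicate 4). Nkg7 was the gene in which the WT libraries lay farthest apart, by 10.97.

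Cytotoxic lymphocytes also express Nkg7 and Cst7, and their defining genes were at or near 0. Of 13 markers of cytotoxic T and NK cells, 8 were listed at 0 in every library, among them Gzma, Gzmb, Prf1, Cd3e and Klrd1. The summed linear level of the 13 was 122 and 29.5 in KO cells, against 156 and 191 in WT cells. Nearly all of it came from the chemokine gene Ccl5, at 6.89 and 4.66 in KO cells, against 7.18 and 7.55 in WT cells.

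**Figure D3:**
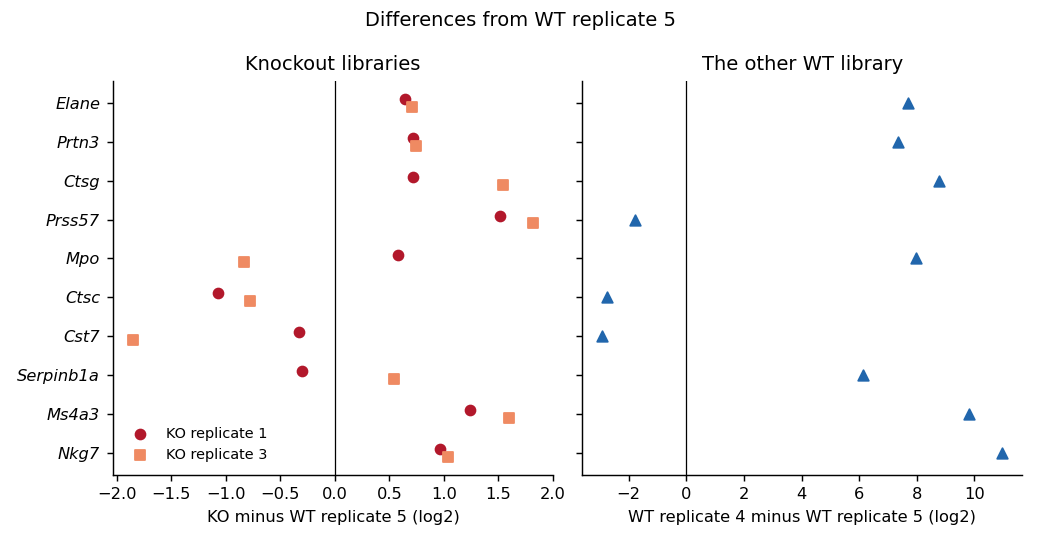
Difference of each KO library (left panel) and of WT replicate 4 (right panel) from WT replicate 5, in log2 units, for the 10 primary granule genes. The KO libraries differ from WT replicate 5 by -1.86 to 1.82, whereas WT replicate 4 differs from it by -2.92 to 10.97.

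WT replicate 4 split the genes into 2 sets. It lay over 3 log2 above every other library in 7 of the 10 (Elane, Prtn3, Ctsg, Mpo, Serpinb1a, Ms4a3 and Nkg7), against 8.98% of all tested genes, and below every other library in 3 (Ctsc, Cst7 and Prss57), against 35.1%. This went with the level of a gene in the other libraries. The same gap was found in 68.6% of the 194 tested genes with a median of log2 12 to 20 there, which include Elane, Prtn3, Ctsg and Mpo, in 34.7% of 1048 genes at log2 10 to 12 and in 14.4% of 3032 at log2 8 to 10. It was also found in 5 of 7 general myeloid markers, and so is not particular to the primary granule genes. The KO minus WT difference over all libraries was negative in the 7 and positive in the 3. Without WT replicate 5, limma called 9 of the 10 genes, 7 lower and 2 higher in KO cells, against 14.5% of all tested genes lower and 14.2% higher, and Cst7 (adjusted p = 0.239) was the exception. Those 9 calls rest on WT replicate 4 as the single WT library, which is assumed to vary like the KO pair.

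Of the 10 genes, 4 were called in the authors' deposited table as lower at an adjusted p under 0.05, against 3.83% of its 20610 rows with a fold change, and 0 higher, against 0.131%. It also called lower 6 of 10 secondary granule and mature neutrophil markers and 3 of 7 general myeloid markers. The 4 primary granule genes were Elane, Prtn3, Ctsg and Ms4a3, with log2 fold changes of -6.004, -5.91, -6.46 and -7.55 and adjusted p-values of 0.00517, 0.0189, 0.0122 and 0.00346 in the authors' deposited table. The column is headed as WT against cKO, and is read as KO over WT because Ybx1 is at -9.50. In all 4 genes both KO values were above WT replicate 5 and WT replicate 4 was over 3 log2 above every other library. Of the 681 tested genes that the authors' deposited table called lower, 570 (83.7%) had WT replicate 4 over 3 log2 above every other library, and 219 (32.2%) had both KO values above WT replicate 5.

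Mpo and Nkg7 were listed in the authors' deposited table with log2 fold changes of -7.06 and -9.24 but a p-value of exactly 1, as were 1113 rows with a fold change beyond 5 in either direction. Ctsc was listed there at -4.68 (adjusted p = 0.110), opposite in sign to the difference of 0.45 between the means of its library values. Prss57 was listed in the authors' deposited table at 2.01 with an adjusted p of 0.136, Serpinb1a at -4.78 with 0.0608 and Cst7 at 0.0053 with 0.999.

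As a share of each library's summed linear values, which no linear scaling between libraries changes, the 10 genes took 2.1% and 2.11% in KO cells, against 1.85% and 1.30% in WT cells. The values of WT replicate 4 are no linear rescaling of the others, as its bands show, so its shares are not comparable with those of WT replicate 5. Elane took 1.5% and 1.52% in KO cells, against 1.18% and 0.892% in WT cells. Prtn3 took 0.144% and 0.143% in KO cells, against 0.0860% and 0.0813% in WT cells. On this scale both KO values lay above both WT values in 3 of the 10 (Elane, Prtn3 and Prss57), against 45.9% of all tested genes, and below in 0, against 1.99%. These counts and percentages use the shares of WT replicate 4, so they are not read as a result. Whether the values are corrected for gene length is not given in the sources used here, so the shares of different genes are not compared. This scale was chosen after the values had been seen.

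The neighbours of the chromosome 10 proteases were mixed. Cfd, the complement factor D gene that starts 2.64 kb after Elane ends, was at -0.042 and 0.58 in KO cells, against 1.73 and 1.98 in WT cells. Med16, a Mediator subunit gene next to Cfd, was at 8.13 and 8.12 in KO cells, against 18.82 and 7.37 in WT cells, with both KO values between the WT values, as for Elane and Prtn3. Between Prss57 and Prtn3 the splicing regulator gene Ptbp1 was at 9.19 and 8.68 in KO cells, against 7.38 and 8.33 in WT cells, so that both KO values were above both WT values, as for Prss57. Plppr3 overlaps Prtn3 by 159 bases on the opposite strand and was at 8.36 and 8.95 in KO cells, against 5.62 and 8.69 in WT cells, and Fstl3 overlaps Prss57 by 1157 bases on the opposite strand and was at 0.13 and 0.047 in KO cells, against 3.28 and 0.76 in WT cells. The overlaps are of whole gene spans, and whether they hold exons of both genes was not examined. Whether reads were counted by strand is not given in the sources used here, so how reads in these overlaps were counted is unknown.

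Over the 4 libraries, with each gene centred on its own mean, Prtn3 was the primary granule gene most like Elane, at a Euclidean distance of 0.319. Of 9044 tested genes with a mean log2 value of at least 5, the 3 nearest to Elane were Gsr, Eif4g2 and Chchd4, at distances of 0.116, 0.125 and 0.128. The 3 nearest to Ctsc were Gm15931, Arl5b and Lilrb4a, at 0.134, 0.141 and 0.158, and Cst7 was the nearest primary granule gene, at 1.29. These distances rest on 4 libraries, and for Elane WT replicate 4 holds most of the spread.

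The series title names m6A, a methyl mark that is often laid on adenosines in GGACT. The longest GENCODE M21 coding transcript held 5 GGACT in Ms4a3, 3 in Prtn3, Mpo and Prss57, 2 in Elane, Cst7, Ctsc and Serpinb1a and 1 in Ctsg and Nkg7. Per kb these were 4.95 in Ms4a3, 2.93 in Prtn3 and 2.03 in Elane and Cst7, against a median of 1.05 over 12794 tested coding genes. Near that median were Nkg7 (1.14), Mpo (1.09), Prss57 (1.06), Serpinb1a (1.04) and Ctsg (0.998), and Ctsc was at 0.621. A match to these letters is not a measured methyl mark.

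The other enzymes and membrane proteins of azurophil granules were mostly below WT replicate 5. Of 15 genes, limma called 0. Both KO values were above WT replicate 5 in 3, against 41.8% of all tested genes, and below in 11, against 33.4%. The median difference was -0.42. The difference from the serine proteases was not tested. Gaa, the lysosomal alpha-glucosidase gene, was at 7.88 and 8.31 in KO cells, against 5.51 and 7.47 in WT cells, and Fuca1, a fucosidase gene, at 9.90 and 10.24 in KO cells, against 7.70 and 9.72 in WT cells. These 2 had the smallest limma p of the list (adjusted p = 0.826 each). The authors' deposited table called 0 of the 15.

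Of 10 transcription factors that act at the promyelocyte stage, limma called 0. Both KO values were above WT replicate 5 in 5, against 41.8% of all tested genes, and below in 2, against 33.4%. The median difference was 0.16. Gfi1, a repressor that in mouse and human neutrophil precursors acts on the elastase gene, was at 6.47 and 6.71 in KO cells, against 5.15 and 4.998 in WT cells. Its limma difference was 1.52 (SE 0.65, adjusted p = 0.826). Cux1, a homeodomain factor, was at 8.88 and 8.11 in KO cells, against 10.87 and 9.16 in WT cells. Spi1 and Cux1 were called lower in the authors' deposited table.

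Of 12 genes that fold, sort or pack granule proteins, limma called 0. Both KO values were above WT replicate 5 in 4, against 41.8% of all tested genes, and below in 7, against 33.4%. The median difference was -0.33. Jagn1, mutated in a form of human congenital neutropenia, was at 9.55 and 9.31 in KO cells, against 5.72 and 9.12 in WT cells. Hax1, mutated in another form, was at 9.25 and 9.73 in KO cells, against 5.83 and 9.22 in WT cells. Only Calr of the 12 was called lower in the authors' deposited table. It is the gene of a chaperone that binds myeloperoxidase precursors. Calr was at 10.56 and 10.55 in KO cells, against 19.79 and 11.06 in WT cells.

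Of 14 protease inhibitor genes 10 were tested, and limma called 0. Both KO values were above WT replicate 5 in 2, against 41.8% of all tested genes, and below in 6, against 33.4%. The median difference was -0.91. Stfa2l1, a stefin that belongs to the inhibitors of cysteine proteases, was at 7.74 and 8.10 in KO cells, against 9.24 and 9.62 in WT cells (limma difference -1.51, SE 0.73, adjusted p = 0.826). Serpinb9, the gene of a granzyme B inhibitor, was at 0.47 and 2.28 in KO cells, against 3.39 and 2.54 in WT cells. Other stefin genes, named after their values had been seen, differed from WT replicate 5 by -1.81 for Stfa1, -2.04 for Stfa2 and -3.40 for Stfa3, and by 0.036 for Cstb. Cstb, the stefin B gene, was at 9.64 and 10.74 in KO cells, against 18.72 and 10.15 in WT cells, with WT replicate 5 between the KO libraries. Calls in the authors' deposited table were 6 lower and 0 higher for the 14, against 3.83% and 0.131% of its rows with a fold change.

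Secondary granule and mature neutrophil markers, which follow the primary granule genes in development, were mostly below WT replicate 5. Both KO values were below it in 8 of 10, against 33.4% of all tested genes, and above it in 0, against 41.8%, with a median difference of -1.12, against 0.70 for the primary granule genes and 0.074 for all tested genes. Ltf, the lactoferrin gene, was at 6.49 and 6.38 in KO cells, against 8.90 and 10.71 in WT cells (limma difference -3.37, SE 0.89, adjusted p = 0.826), and Mmp9, the gelatinase B gene, at 7.34 and 8.27 in KO cells, against 8.91 and 9.30 in WT cells. The difference between the 2 lists was not tested. Of 9 monocyte markers, both KO values were below WT replicate 5 in 8 and above in 1, with a median difference of -0.66. Of 7 general myeloid markers both were below in 4 and above in 0, with a median of -0.32. The part of a changed mix of maturation stages or of monocytes in the primary granule values was not tested.

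**Figure D4:**
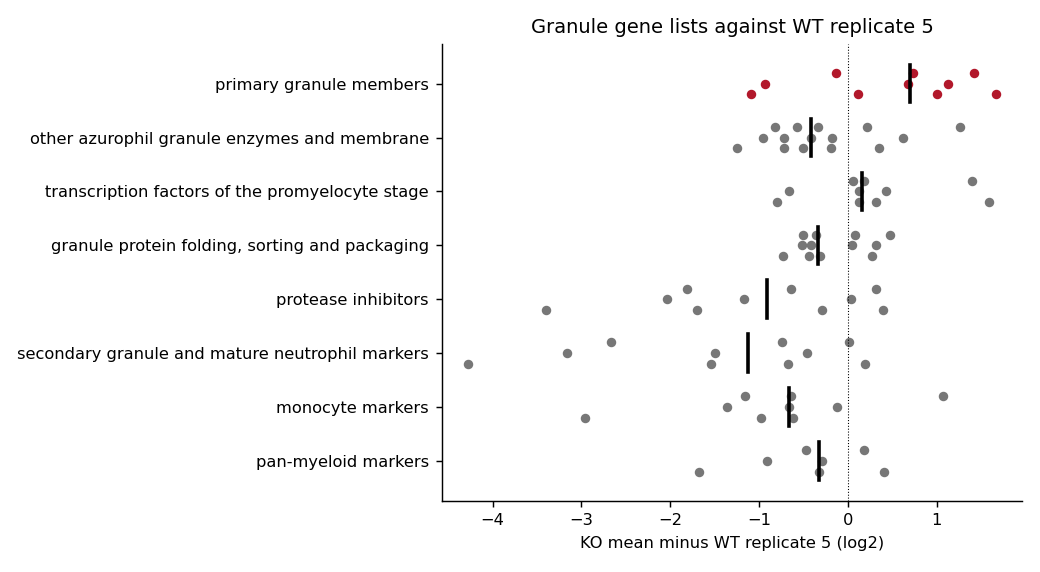
KO mean minus WT replicate 5 (horizontal axis, log2) for each tested gene of 8 lists, with a black bar at the median of each list. The primary granule genes (red) have a median of 0.70 and run from -1.09 to 1.67, while the secondary granule and mature neutrophil markers have a median of -1.12 and run from -4.28 to 0.20.

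Markers of other blood lineages ranged from 0 to the levels of expressed genes. Of 8 erythroid markers 5 were tested, with Epor at 0.14 and 0.13 in KO cells, against 2.07 and 0.14 in WT cells, and Hbb-bs at 0.70 and 2.67, against 3.36 and 1.95. Of the B cell markers 2 were tested, Cd79b at 7.41 and 7.18 in KO cells, against 5.16 and 6.996 in WT cells, and Cd79a at -0.41 and 2.67, against 4.12 and 0.68. Of 8 mast cell and basophil markers Fcer1a and Tpsb2 were listed at 0 throughout, and Hdc was at 10.38 and 8.19 in KO cells, against 9.93 and 11.42 in WT cells. Limma called 0 of the tested members of these 3 lists.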

How the data were processed

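Polyadenylated RNA of 4 libraries was sequenced. Per the submitters' processing notes CASAVA, HISAT2 2.1.0, featureCounts and DESeq2 were used with GRCm38, though their roles are not stated. The authors deposited log2 expression values per gene and library. They also deposited, for each gene, a log2 fold change with its p-value, raw and adjusted. How the log2 values were normalized is not given in the sources used here. No counts are given, so no interval or detection limit was computed.

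Genes with a log2 value of at least 0 in 2 or more libraries entered the tests (17303 genes, all 10 primary granule genes among them). The deposited log2 values were fitted without a pseudocount by limma 3.58.1 (R 4.3.3), whose prior variance followed a mean-variance trend, with Benjamini-Hochberg adjustment over all genes tested, and an adjusted p under 0.05 counts as called. The limma step was tested on simulated data with no library unlike the rest, so that test does not cover the fit with WT replicate 4. An exact permutation test of 2 against 2 libraries cannot go below 0.333, so none is printed. Differences are KO minus WT. Without WT replicate 4 the spread comes from the KO pair alone, and the same variance is taken for the lone WT library.

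The primary granule genes, the 13 other lists and the tests were chosen with earlier results of these data known. The text names all 10 genes, Ybx1 and, from each other list, the 2 genes with the smallest limma p. Genes outside that rule were named after their values had been seen. Leaving out each library, other filters, pseudocounts, centring and quantile normalization were set as alternatives from the start. Limma without the trend, scaling without WT replicate 4 and scaling to equal summed values were added after the values were seen. Locations come from GENCODE M21 (GRCm38).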

Additional observations from a re-analysis of the deposited data

How the results depend on the processing

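Of 140 values of single genes over 14 alternatives, 93 kept their sign and their side of the threshold, 37 changed sign and 1 was exactly 0. Past the threshold were 10, the 9 of the alternative without WT replicate 5 and Elane under scaling to the same sum, which also changed sign. Without WT replicate 4 the KO minus WT differences changed sign to 0.67 (Elane), 0.73 (Prtn3), 1.13 (Ctsg), 1.42 (Ms4a3), 0.9998 (Nkg7), 0.12 (Serpinb1a), -0.93 (Ctsc) and -1.09 (Cst7). With the libraries also centred on their median these were 0.75, 0.81, 1.20, 1.49, 1.075, 0.19, -0.85 and -1.02, and with quantile normalization 0.20, 0.83, 1.28, 1.46, 0.96, 0.10, -0.84 and -1.10, with Mpo at 0.099. Quantile normalization of all libraries gave 0 for Elane, against -3.17 in the deposited values, 0.071 for Mpo, 1.275 for Prtn3, 0.80 for Ctsg, 1.49 for Ms4a3, -0.36 for Cst7 and 0.015 for Serpinb1a. Scaling to the same summed linear value moved the median difference of all tested genes to 3.63. It gave 0.56 for Elane, 0.78 for Prtn3, 0.47 for Ctsg, 0.23 for Ms4a3 and 0.77 for Serpinb1a. The limma adjusted p of 5.17e-13 for Elane on that scale is not read as a result. The WT libraries themselves differed there, with Elane at 1.18% and 0.892% of the sum. An exact permutation test of 2 against 2 libraries cannot go below 0.333. Without WT replicate 5 the differences were -7.007 (Elane), -6.62 (Prtn3), -7.64 (Ctsg), -8.09 (Mpo), -8.41 (Ms4a3), -9.97 (Nkg7), -6.02 (Serpinb1a), 1.83 (Ctsc), 1.83 (Cst7) and 3.46 (Prss57), and all but that of Cst7 passed the threshold. Without KO replicate 1, Cst7 was at -0.39. Prss57 was positive under every alternative run.

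Limma called 0 to 4960 genes with 1 library left out (26 without KO replicate 1, 88 without KO replicate 3, which leaves libraries titled RNA-seq1 only, 0 without WT replicate 4 and 4960 without WT replicate 5), 9 with scaling to the same sum, and 0 under each other alternative. The primary granule genes with both KO values above WT numbered 1 to 6 with 1 library left out and those below 1 to 7. Without WT replicate 4 they numbered 6 and 2, against 41.8% and 33.4% of all tested genes. With centring and without WT replicate 4 they numbered 6 and 2. With quantile normalization there they numbered 5 and 2, since Elane was then level in KO replicate 3 and WT replicate 5. With all libraries they numbered 3 and 0 after quantile normalization. After scaling to the same sum they numbered 3 and 0, against 45.9% and 1.99% of all tested genes. Shares over all genes under the other alternatives are not given, so no count here is read as a result about the primary granule genes. The median difference from WT replicate 5, 0.70, was 0.47 after quantile normalization of all libraries. The cause of these changes was not tested. No paired analysis was possible because the KO and WT libraries share no replicate number. The depth of the libraries is unknown, which limits every level.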

Other observations

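Prg2, the gene of eosinophil major basic protein, was at -1.53 and 2.11 in KO cells, against 4.06 and 8.61 in WT cells, while the eosinophil genes Epx and Ear1 were listed at 0 in every library. Its limma difference of -6.05 (SE 2.04) had an unadjusted p of 0.0344 and an adjusted p of 0.826. Siglecf, an eosinophil surface gene, was at 5.23 and 4.61 in KO cells, against 4.57 and 5.11 in WT cells. Among the paralogs of the granule proteases, Ctsl, a lysosomal cathepsin gene, was at 8.12 and 8.40 in KO cells, against 18.73 and 8.17 in WT cells, and so differed between the WT libraries by more than any primary granule gene but Nkg7. Ms4a2, a gene of the same family as Ms4a3, was at 2.48 and 2.49 in KO cells, against 2.96 and 0.58 in WT cells. Among monocyte markers Klf4 was at 0.23 and 2.56 in KO cells, against 4.15 and 4.36 in WT cells, and F13a1 at 9.97 and 10.17, against 5.68 and 8.997. Itgam, a general myeloid gene, was at 8.03 and 7.22 in KO cells, against 18.20 and 9.31 in WT cells. Csf3r, another, was at 10.63 and 10.24 in KO cells, against 19.77 and 10.75 in WT cells. Cpa3, a mast cell and basophil protease gene, was at 4.71 and -1.69 in KO cells, against 3.37 and 5.03 in WT cells, and Cd3d at 0.55 and 1.01, against 2.59 and 0.54.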
